A study of Mus musculus with 6 samples.

Results

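Beta-casein (Csn2) and 9 other genes of milk production were followed in 6 spontaneous NT3 tumors of female mice. The genes were Csn1s1, Csn1s2a and Csn3, which encode the other caseins, the whey protein genes Wap and Lalba, and the milk-associated genes Glycam1, Btn1a1, Lpo and Elf5. They were chosen by name, after earlier results of these tumors had shown Csn2 reads with few reads on the other caseins, so their levels are given as a description without a test. All 10 were found among the 23358 gene entries of the deposited table.

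NT3 mice carry a loxP-flanked stop cassette in the ROSA26 locus in front of a form of NIK, the kinase that starts alternative NF-κB signaling, which lacks the domain that binds TRAF3 and therefore escapes degradation. All 6 animals carried a Cre that removes the stop. Osx-Cre;NT3 tumors 13, 18 and 25 arose on the trunk, as did tumor 29 of an FSP1-Cre;NT3 mouse, and the FSP1-Cre;NT3 tumors 27 and 36 were perineal. Osx-Cre is an osteoblast lineage driver that doxycycline chow held off until weaning, and FSP1-Cre (S100a4-Cre) is active mainly in fibroblasts and also in myeloid cells. The NT3 allele was on C57Bl/6J, Osx-Cre on mixed C57Bl/6J and CD1, and FSP1-Cre on FVB/n. The treatment field of the labels is "none". Latencies were 150, 168 and 115 days in tumors 13, 18 and 25, and 101, 72 and 52 days in tumors 27, 29 and 36, so that latency and background cannot be told apart from the line, and site only through tumor 29. Cre-negative tissue was not analysed here. Each tumor came from 1 mouse, and bulk tissue does not separate fewer cells of a type from less RNA per cell.

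Milk proteins are made by the luminal cells of mammary alveoli in late pregnancy and lactation. Prolactin binds its receptor, JAK2 phosphorylates STAT5, and STAT5 acts with the glucocorticoid receptor, C/EBPβ and NFI factors at the promoters of the casein and whey genes, while Elf5 is an ETS factor of the alveolar program. RANK, the receptor for RANKL, drives the growth of the alveoli and signals in part through NIK. The casein genes lie in 1 cluster on mouse chromosome 5 and are usually induced together.

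Of the members with a promoter sequence in the RefSeq table, 3 carried the STAT motif TTCNNNGAA within the 250 bases upstream of the start site. They are shown here because Csn2, which was read in every tumor, and its neighbour Csn1s1, which was not, both had it. Capitals mark the motif, and each stretch of 30 bases reads 5′ to 3′ on the strand of its gene in build GRCm38.p6.

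Csn2, chr5:87699499-87699528, minus strand: tcacgtagacTTCTTGGAAttgaagggact
Csn1s1, chr5:87666098-87666127, plus strand: tttgtaacaaTTCTTAGAAtttatgtaaaa
Glycam1, chr15:103565207-103565236, minus strand: gccaactcatTTCCCAGAAacaccaattcc

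The match began 93 bases upstream of the start site in Csn2, 100 bases upstream in Csn1s1 and 145 bases upstream in Glycam1. On either strand, 7.02% of the 32851 promoters in the table held this motif in the same window. Sequences were at hand for 8 of the 10 members, without Csn3 and Btn1a1, and Elf5 had 2 start sites. A TATAAA box, the C/EBP motif TTGCNNCAA, the ETS motif CCGGAAGT and the κB consensus had no match in these windows, whereas 12.4%, 1.74%, 2.88% and 3.9% of all promoters held them. The glucocorticoid receptor motif AGAACA matched in Csn1s2a, 59 to 54 bases upstream on the opposite strand, and in 16.1% of all promoters. Only letters were compared, and no binding was measured. For Csn2 the wider window is not printed, because GENCODE places a 5′ untranslated exon of 1 transcript in it.

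The upstream stretches of Csn1s1 and Lpo are given whole, since the first gene was almost unread in the tumors and the second matched Csn2 in RPKM, reads scaled to gene length. The Csn1s1 stretch lies at chr5:87665958-87666207 on the plus strand, with the STAT motif in capitals. The Lpo stretch lies at chr11:87826115-87826364 on the minus strand and holds none of the 6 motifs. GENCODE extends Lpo 2175 bases further upstream, to 87828289, so this stretch lies inside the gene as GENCODE places it. Which start the tumors used was not tested.

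Csn1s1: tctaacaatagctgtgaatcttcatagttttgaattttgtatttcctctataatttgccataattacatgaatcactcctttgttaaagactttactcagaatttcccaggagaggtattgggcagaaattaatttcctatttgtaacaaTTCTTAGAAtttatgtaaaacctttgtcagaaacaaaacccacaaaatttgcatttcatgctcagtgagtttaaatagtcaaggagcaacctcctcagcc
Lpo: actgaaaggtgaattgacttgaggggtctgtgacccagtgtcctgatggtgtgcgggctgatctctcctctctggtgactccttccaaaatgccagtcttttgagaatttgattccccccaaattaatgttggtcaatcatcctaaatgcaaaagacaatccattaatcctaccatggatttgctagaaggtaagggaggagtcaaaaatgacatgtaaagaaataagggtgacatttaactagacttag

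Total counts ranged from 51824408 to 163297772 per tumor, and every count was even. RNA of 7 basal keratinocyte markers, Krt5 and Krt14 among them, summed to 6744 CPM (counts scaled to library size) in tumor 36. In the other 5 tumors the sum was 11998 to 17835 CPM. Which cells carried this RNA was not tested. Tumor 36 stood apart, with 5619 CPM over 17 mammary luminal epithelium markers against 1612 to 2371 CPM elsewhere, and 2668 CPM over 7 myoepithelium markers against 246 to 558 CPM. The luminal sum came chiefly from Krt8 and Krt19, at 2249 and 1091 CPM. In the same list Ehf, Cldn4 and Wnt4 were lowest in tumor 36, at 475, 60.2 and 101 CPM. Whether this tumor held mammary tissue was not tested. Fold changes of the members, and calls on the lists between the lines, are therefore also given without tumor 36.

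Csn2 was read in every tumor. This gene, at chr5:87692624-87699421 on the minus strand (mm10), encodes beta-casein, which forms the core of the casein micelle together with the alpha caseins. It had 10120, 12674 and 24662 counts in tumors 13, 18 and 25, and 7470, 8662 and 3618 counts in tumors 27, 29 and 36. Scaled with TMM, the levels were 210, 82.3 and 347 CPM in the Osx-Cre;NT3 tumors and 115, 111 and 56.6 CPM in the FSP1-Cre;NT3 tumors. Tumor 25 was the highest and tumor 36 the lowest, 6.14-fold apart, and the ranges of the lines overlapped because tumor 18 lay below tumors 27 and 29. The tumors had no technical replicates, so it is unknown whether neighbours in this order, such as tumors 27 and 29, differ beyond the error of a library.

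Per length, Csn2 was at 110 ± 77.8 RPKM (SD, n = 6), which ranked it 465 of the 23358 entries by mean RPKM. Within a tumor its rank ran from 178 in tumor 25 to 1428 in tumor 36. The other genes of its class were far down the same list. Csn1s1 ranked 15601, Csn3 17351, Wap 17192 and Lalba 16908.

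Csn1s1, the alpha-S1 casein gene, was read in 3 of the 6 tumors, with 56 counts in tumor 25, 20 in tumor 27 and 38 in tumor 36, and at 0 in tumors 13, 18 and 29. In RPKM, Csn2 exceeded it 557-fold in tumor 25, 472-fold in tumor 27 and 120-fold in tumor 36. The 3 tumors with Csn1s1 reads thus included both the highest and the lowest for Csn2. Csn1s2a, an alpha-S2 casein gene, had 0 counts in all 6 tumors. Set against 3 counts per library, the limit that a count of 0 allows, Csn2 was at least 991-fold higher in tumor 36 and at least 6753-fold higher in tumor 25 in RPKM.

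Csn3 encodes kappa-casein, which coats the micelle. It had 0, 6 and 0 counts in tumors 13, 18 and 25, and 18, 2 and 10 counts in tumors 27, 29 and 36. Both perineal tumors were above all 4 trunk tumors, at 0.276 and 0.156 CPM against at most 0.039 CPM. The sites did not overlap in 19.6% of all genes tested, and Csn3 passed a filter on low counts only through the perineal tumors. The gene 1700066N21Rik runs across Csn3 on the opposite strand. Its counts were 2, 442, 0, 6, 2 and 26 in the order of tumors 13, 18, 25, 27, 29 and 36, and without a stated strand setting the reads of the overlap cannot be assigned.

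Wap, the whey acidic protein gene, reached at most 0.104 CPM and was at 0 in 3 tumors. Lalba, whose alpha-lactalbumin switches a galactosyltransferase to lactose synthesis, reached at most 0.0845 CPM and was at 0 in tumor 36. The most counts in a tumor were 16 for Wap and 8 for Lalba, both in tumor 18, the deepest library. The limit that a count of 0 allows was between 0.0195 and 0.0621 CPM per tumor, for 3 counts. This limit covers counting error only, and is higher if both reads of a pair were counted.

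Csn2 made up almost all of the casein and whey RNA. It held 99.60% ± 0.34 (SD, n = 6) of the summed RPKM of the 6 casein and whey genes, from 98.99% in tumor 36 to 99.88% in tumor 29. In tumor 36 the 5 other genes together had 48 counts beside the 3618 of Csn2, a Csn2 share of 98.69% of counts with an exact Clopper-Pearson 95% interval of 98.27% to 99.03%. The interval covers counting error only and is wider if both reads of a pair were counted, and the share describes values by which the genes were chosen. The other genes never summed to more than 0.547 RPKM.

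**Figure D1:**
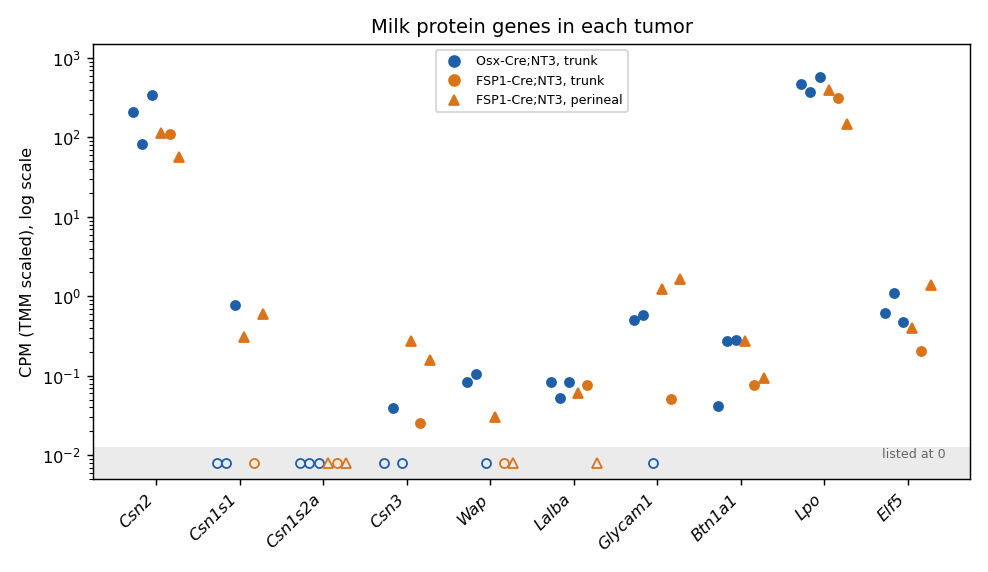
CPM of each milk gene (log axis) in each of the 6 tumors, with color for the line and shape for the site; open symbols in the grey band are libraries with 0 counts. Csn2 (56.6 to 347 CPM) and Lpo (149 to 583 CPM) stand above the other 8 genes, none of which reached 2 CPM in any tumor.

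Lpo was the second milk gene with a high level. It encodes lactoperoxidase, a secreted heme peroxidase of milk, saliva, tears and airway fluid, and lies at chr11:87806428-87826114 on the minus strand. Its levels were 469, 371 and 583 CPM in tumors 13, 18 and 25, and 391, 317 and 149 CPM in tumors 27, 29 and 36. Tumors 25 and 36 were again the highest and the lowest, and the lines overlapped, since tumor 27 exceeded tumor 18. The spread was narrower than that of Csn2, with a coefficient of variation of 38.4% against 70.4%.

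Compared per length, the levels of both genes were close. Lpo was at 104 ± 40.4 RPKM (SD, n = 6), rank 494, and the ratio of Lpo to Csn2 RPKM ran from 0.643 in tumor 25 to 1.72 in tumor 18. Lpo exceeded Csn2 in 4 tumors and lay below it in tumors 13 and 25. Across the 6 tumors the log2 CPM of both genes had a Pearson correlation of 0.87, and of 0.73 over the 4 tumors left without tumors 25 and 36, which lay farthest from the median of Csn2. These are descriptions of libraries that also differed in depth, line and tissue makeup.

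**Figure D2:**
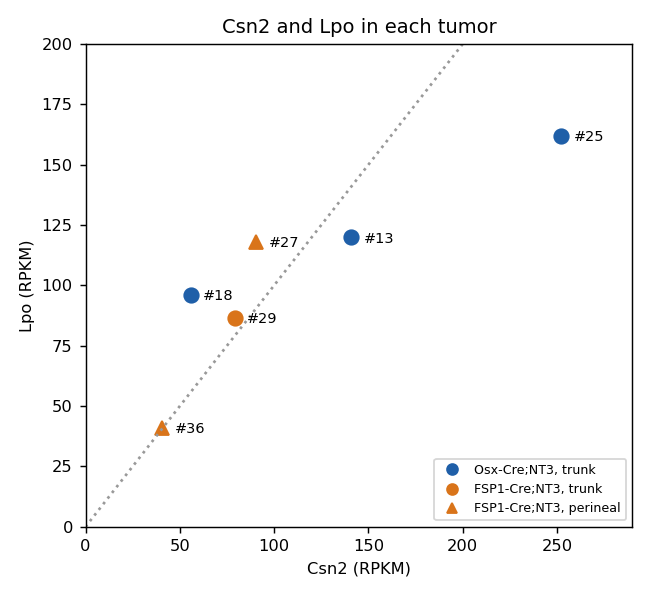
RPKM of Lpo against RPKM of Csn2, 1 symbol per tumor with its mouse number; the dotted line marks equal values. Tumor 25 (252 and 162 RPKM) is highest and tumor 36 (40.8 and 41.1 RPKM) lowest in both genes.

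The other milk-associated members were scarce. Glycam1, a mucin-like glycoprotein of milk and of lymph node venules, was at 0.497, 0.585 and 0 CPM in tumors 13, 18 and 25. In tumors 27, 29 and 36 it was at 1.23, 0.0513 and 1.63 CPM. Its perineal tumors exceeded all trunk tumors, and the sites did not overlap in 19.6% of all genes tested. Btn1a1, the butyrophilin of the milk fat globule membrane, ranged from 0.0414 to 0.282 CPM. Elf5 was lowest in tumor 29 (0.205 CPM) and highest in tumor 36 (1.38 CPM), and the order of the tumors by Elf5 was not that by Csn2. In all, 8 of the 10 members stayed under 2 CPM in every tumor.

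The casein cluster was silent or nearly so around Csn2. Within 500 kb of either end of Csn2 the table held 20 other entries, of which 9 had 0 counts in all 6 tumors and 14 never exceeded 10 counts. Csn1s1, the nearest gene, lay 10 kb away, and Csn1s2b and the salivary genes Smr3a and Smr2 were at 0 throughout, while the enamel gene Odam reached 6 counts. Only 3 neighbours passed 1 CPM in any tumor, and each did so in 1 or 2 tumors while Csn2 was high in all 6. Sult1b1 and Sult1d1, sulfotransferase genes 154 and 124 kb away, were at 60.5 and 40.7 CPM in tumor 36, in which Csn2 was lowest, and at most 0.416 and 2.99 CPM in the other 5. The third, 1700066N21Rik, was at 2.87 CPM in tumor 18 and at most 0.406 CPM elsewhere.

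**Figure D3:**
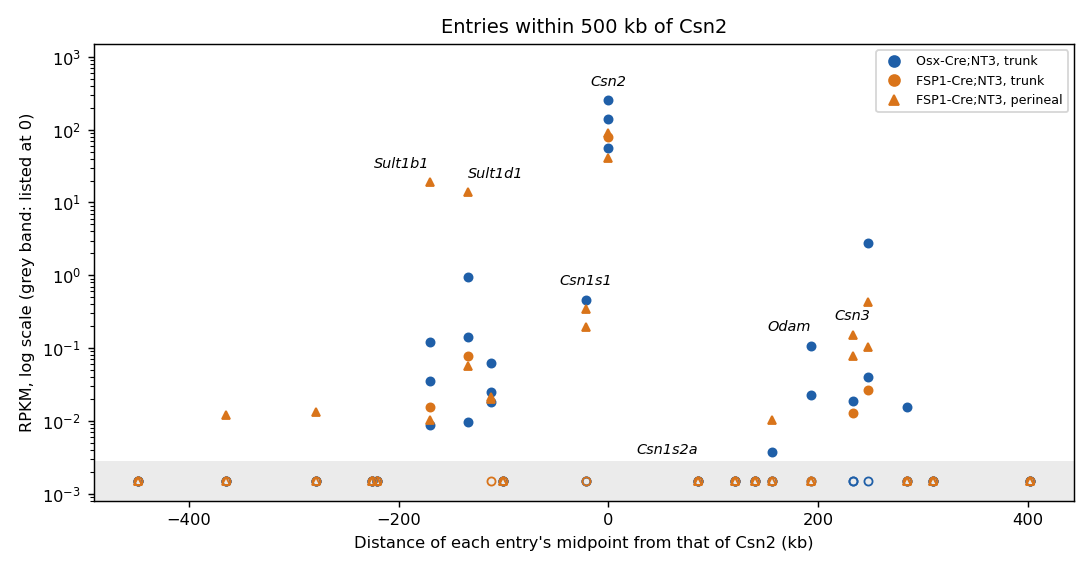
RPKM (log axis) of every entry within 500 kb of Csn2 in each tumor, placed by the distance of its midpoint from that of Csn2 in kb; open symbols in the grey band are at 0. Csn2 alone is high in all 6 tumors, and Sult1b1 and Sult1d1 are high in tumor 36.

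The first comparison asked whether the milk genes differed between the Cre lines. No member passed the test, the quasi-likelihood test of edgeR, with p-values adjusted by Benjamini-Hochberg over 16415 genes. Of the 10 members, 6 passed the filter on low counts and 0 were called, and over all genes tested 0% were called, with 1770 genes (10.8%) at an unadjusted p under 0.05. DESeq2 called 420 genes (2.72%), none of them a member, and 196 without tumor 36. Csn2 averaged 94.1 ± 32.6 CPM in FSP1-Cre;NT3 and 213 ± 132 CPM in Osx-Cre;NT3 tumors (SD, n = 3 each), a log2 fold change of -1.18 (SE 0.53, adjusted p = 0.463 by edgeR). Without tumor 25 the log2 fold change was -0.67, and without tumor 36 it was -0.92, with adjusted p = 0.412 and 0.682 by edgeR. Without tumor 18 it was -1.57 (adjusted p = 0.557 by edgeR).

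Lpo averaged 286 ± 124 CPM against 474 ± 106 CPM, a log2 fold change of -0.73 (SE 0.38, adjusted p = 0.474 by edgeR). Without tumor 36 it was -0.42, and without tumor 27 it was -1.04, with adjusted p = 0.685 and 0.645 by edgeR. The remaining tested members had wide errors, and their log2 fold changes were 0.19 (SE 2.01) for Csn1s1, 1.42 (SE 1.5) for Glycam1, -0.46 (SE 0.86) for Btn1a1 and -0.16 (SE 0.78) for Elf5. Without tumor 36 they were -0.79, 0.81, -0.22 and -1.29 in the same order. By this test none of these differences exceeded the spread between the tumors.

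The second comparison set the 2 perineal tumors against the 4 trunk tumors. Again 0 of the 7 members tested were called by edgeR, as were 0% of the 16971 genes tested, with 1784 genes (10.5%) at an unadjusted p under 0.05. DESeq2 called 605 genes (3.66%) and no member. A fit without tumor 36 leaves a lone perineal tumor, so its calls between the sites are not given. Csn2 averaged 85.6 ± 41.1 CPM in perineal and 188 ± 120 CPM in trunk tumors, a log2 fold change of -1.14 (SE 0.63, adjusted p = 0.553 by edgeR), and of -0.38 (SE 0.83) with the line as a covariate. It was -0.68 without tumor 25, -0.71 without tumor 36 and -1.75 without tumor 27, with adjusted p of at least 0.391 by edgeR. For Lpo the log2 fold change was -0.69 (SE 0.45, adjusted p = 0.582 by edgeR), -0.16 without tumor 36 and -1.57 without tumor 27, with adjusted p = 0.16 by edgeR in the last fit.

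Glycam1 had a log2 fold change of 2.32 between the sites (SE 1.32, adjusted p = 0.562 by edgeR), and of 2.11 without tumor 36. Its perineal and trunk tumors did not overlap, as was true of 19.6% of the genes tested. Csn3 averaged 0.216 and 0.0162 CPM at the 2 sites, but it passed the filter only here and only through the perineal tumors, so no fold change is given for it. The perineal tumors also carried more RNA of 8 adipocyte markers, Adipoq and Plin1 among them, with sums of 73.8 and 194 CPM against 11.3 to 25.2 CPM in trunk tumors, and more RNA of 6 granulocyte markers, at 156 and 460 CPM against 19.5 to 61.9 CPM. DESeq2 called 6 of the adipocyte and 3 of the granulocyte markers between the sites, beside 3.66% of all genes tested. Their part in the Csn3 and Glycam1 levels was not tested.

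**Figure D4:**
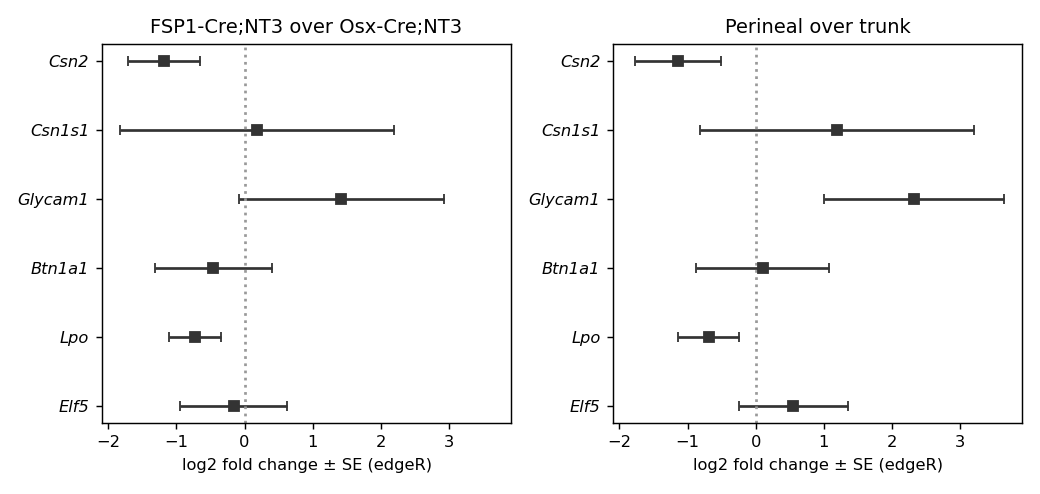
Log2 fold changes of the tested members other than Csn3 with their standard errors from edgeR, FSP1-Cre;NT3 over Osx-Cre;NT3 (left, 3 against 3 tumors) and perineal over trunk (right, 2 against 4). Csn2 and Lpo lie below 0 in both panels, and no gene had an adjusted p under 0.05.

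The upstream regulators of milk genes were read in most cases, except for the hormone. Prl, which encodes prolactin, had at most 0.026 CPM and was at 0 in 5 tumors, and Erbb4, a receptor of the lactating epithelium, was at 0 in all but tumor 36. The prolactin receptor gene Prlr was at 4.96 CPM in tumor 25, the tumor highest for Csn2, and reached 13 CPM in tumor 27. Jak2 was even, at 123 to 151 CPM. Stat5a was lowest in tumor 36 (37.8 CPM) and highest in tumor 29 (85 CPM), and Stat5b ran from 25.1 to 36.8 CPM.

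Among feedback targets of STAT5, Socs2 was at 20.3 to 38.5 CPM and Cish at 20.6 to 37.9 CPM. The glucocorticoid receptor gene Nr3c1 ranged from 76.9 to 133 CPM, and Cebpb was lowest in tumor 25 (17.7 CPM) and highest in tumor 29 (31.3 CPM). Nfib was highest in tumor 25, at 281 CPM, and lowest in tumor 36, at 105 CPM, the same ends as Csn2 and Lpo. Only the RNA was measured, so the activity of these factors is unknown.

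Of the 15 genes of this list, 13 were tested between the lines and 0 were called in either direction by edgeR. Their median log2 fold change was 0.10 beside 0.01 over all genes, and between the sites 0.19 beside -0.02. Igf1r, an insulin-like growth factor receptor gene, was at 43.5, 32.5 and 31.9 CPM in FSP1-Cre;NT3 and at 12.4 to 13 CPM in Osx-Cre;NT3 tumors. The lines did not overlap, as in 17% of all genes tested, and its log2 fold change was 1.51 (SE 0.21, adjusted p = 0.359 by edgeR). With DESeq2 it was called, at an adjusted p of 2.17e-08, and of 9.86e-06 without tumor 36.

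In the RANKL arm the receptor was read and the ligand little. Tnfsf11, which encodes RANKL, ranged from 0.455 to 2.97 CPM, and Tnfrsf11a, which encodes RANK, was lowest in tumor 18 (82.5 CPM) and highest in tumor 25 (185 CPM). The NIK gene Map3k14 ran from 38.7 to 118 CPM, Relb from 85.3 to 230 CPM and Nfkb2 from 190 to 583 CPM. The RANK target Ccnd1 was at 253 to 645 CPM. Tumor 25 was the highest for Tnfrsf11a, Map3k14, Nfkb2 and Ccnd1, as it was for Csn2, while tumor 13 was highest for Relb. All 8 genes of this list were tested in both comparisons and 0 were called by edgeR, with a median log2 fold change of -0.17 between the lines and -0.09 between the sites.

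**Figure D5:**
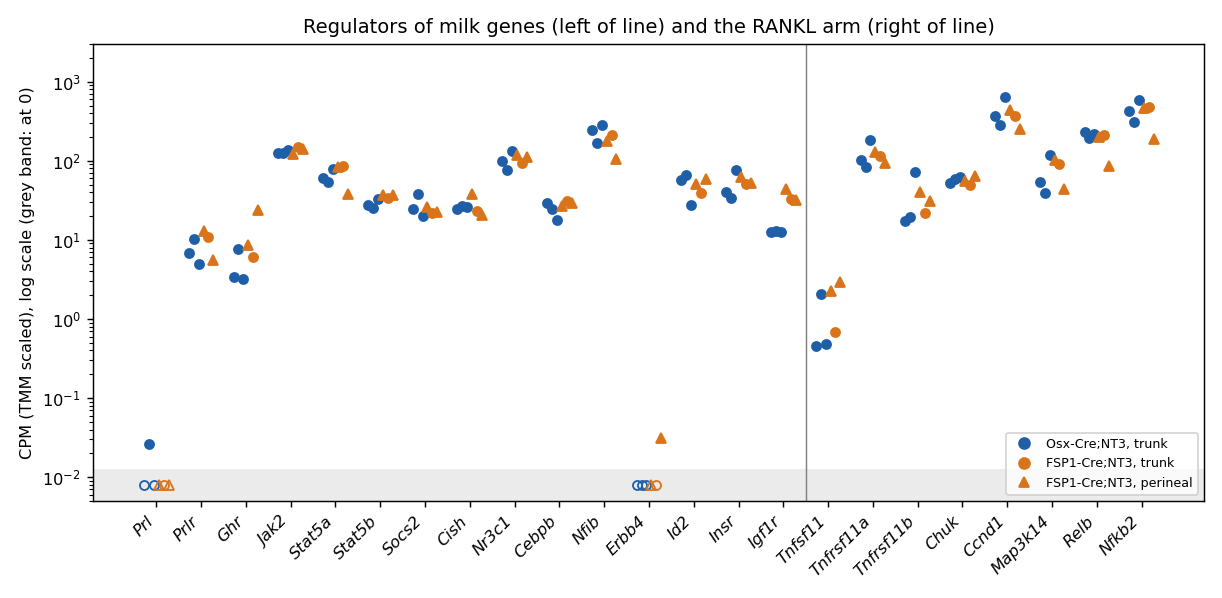
CPM (log axis) of the regulators of milk genes and of the RANKL arm in each tumor; open symbols in the grey band are at 0. Prl and Erbb4 are at or near 0, Tnfsf11 is at or under 2.97 CPM, and Jak2 lies between 123 and 151 CPM in all tumors.

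Genes for the other products of the secreting mammary cell were mixed. Of 27 such genes, 13 averaged over 10 CPM and 7 under 1 CPM. Mfge8, whose product lactadherin is a milk fat globule protein also made by many other cells, was at 668 CPM in tumor 36 and 1738 to 2285 CPM in the other 5. Xdh, needed for milk fat secretion, ranged from 57.7 to 135 CPM, and the lactose synthase subunit gene B4galt1, used in every cell, from 80.2 to 205 CPM. Pigr, the polymeric immunoglobulin receptor gene, was at 1417 CPM in tumor 36 and at most 2.08 CPM elsewhere, and Csn1s2b was at 0.

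Of this list 23 genes were tested between the lines and 24 between the sites, with 0 called by edgeR in each, and median log2 fold changes of 0.39 and 0.57 beside 0.01 and -0.02 over all genes. DESeq2 called Tph1 between the lines, beside 2.72% of all genes tested, and Cd36 and Pigr between the sites, beside 3.66%. Cd36 and Pigr were at 47.7 and 1417 CPM in tumor 36 and at most 12.8 and 2.08 CPM elsewhere. Without tumor 36 it called Tph1 and also Spp1 between the lines. The 17 mammary luminal epithelium markers, which include Krt8 and Epcam, gave no call by edgeR. DESeq2 called 6 of them between the sites, Aldh1a3, Areg, Cldn3, Cldn7, Kit and Krt19, beside 3.66% of all genes tested. Of these 6, all but Kit were highest in tumor 36. Between the lines it called Esr1 and Kit, beside 2.72% of all genes tested, and without tumor 36 Epcam, Esr1 and Kit. The sum over the 17 markers was highest in tumor 36, in which Csn2, Lpo and the list genes Ehf, Cldn4 and Wnt4 were lowest. The hormone receptor gene Esr1 was at 0.817 to 1.6 CPM in Osx-Cre;NT3 and 6.28 to 9.58 CPM in FSP1-Cre;NT3 tumors, a log2 fold change of 2.61 (SE 0.41, adjusted p = 0.402 by edgeR and 5.44e-08 by DESeq2).

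The peroxidase group set Lpo apart from its neighbours. Mpo and Epx, the myeloid peroxidase genes near Lpo on chromosome 11, reached at most 1.9 and 0.637 CPM. Pxdn, a matrix peroxidase gene, was at 64.1 to 106 CPM. Among oxidases that yield hydrogen peroxide or superoxide, Nox4 was read in all tumors, at 2.09 to 6.65 CPM and highest in tumor 25. In tumor 36, the lowest for Lpo, Duox2 was at 24 CPM, its maturation factor Duoxa2 at 15.7 CPM and Nox1 at 23.2 CPM, and none of these exceeded 0.184 CPM in another tumor. Of the 12 genes in this list 8 were tested between the lines, with a median log2 fold change of 0.49, and 9 between the sites, with a median of 0.68, and 0 were called by edgeR. DESeq2 called Nox1 between the sites, beside 3.66% of all genes tested, and 0 genes of the list between the lines.

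Lpo is also made by salivary and lacrimal glands, and the markers of these glands were low. Of 12 such markers, 9 averaged under 1 CPM, and Smr3a, Prol1 and Smgc were at 0 in all tumors. Others were read: Dcpp1, Dcpp3 and Spt1 had 180, 204 and 204 counts in tumor 18, and Amy1 had reads in every tumor. The list summed to between 4.25 CPM in tumor 25, where Lpo was highest, and 18.9 CPM in tumor 18. The water channel gene Aqp5 gave the largest part in each tumor. Of 10 sebaceous and sweat gland markers the sum was 645 CPM in tumor 36 and 134 to 281 CPM elsewhere. Over 8 T cell markers the sum was lowest in tumor 25 (62.6 CPM) and highest in tumor 18 (191 CPM). The 6 granulocyte markers summed to 19.5 CPM in tumor 25 and 460 CPM in tumor 36, with S100a9 at up to 269 CPM and Elane, a gene of precursors, at 0 in 5 tumors. None of these lists had a gene called by edgeR. Between the sites DESeq2 called 5 sebaceous and sweat gland markers, Awat1, Elovl3, Pparg, Scd1 and Scd3. It also called the granulocyte genes Csf3r, S100a8 and S100a9, and Cd4, beside 3.66% of all genes tested. Each of these was highest in tumor 36. Between the lines it called Pparg and S100a9, beside 2.72% of all genes tested, but neither without tumor 36. The part of these lists in the levels of Csn2 and Lpo was not tested.

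The 5 genes whose log2 CPM followed Csn2 most closely over the 6 tumors, among 16414 compared, included Dram1, Pafah1b2, Trim47 and Yy1, with Pearson correlations from 0.989 to 0.993. Dram1, an autophagy regulator, was at 382 CPM in tumor 25 and 116 CPM in tumor 36. For Lpo they were Clu, Reps1, 2310008H09Rik, Rab30 and Kcna7, with correlations from 0.991 to 0.996, and Clu, which encodes the secreted chaperone clusterin, was at 775 CPM in tumor 36 and 3588 CPM in tumor 25. These are descriptions over 6 libraries, picked as the highest of many, and no p is given. In this order Lpo was number 426 for Csn2, and Csn2 number 597 for Lpo.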

How the data were processed

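RNA from 6 tumors, 3 for each Cre line, was sequenced on an Illumina HiSeq2500. Per the study's methods, trimmed reads were mapped by the authors to mm10 using HISAT2 (Galaxy 2.1.0) and summed per gene with featureCounts, whereas the submitters' processing notes name bcl2fastq, TopHat2 2.0.6 and HTSeq. The annotation and the strand setting are not given in the sources used here. The authors deposited raw counts per gene, without normalization, and RPKM values, which are scaled to gene length and library size. No per-sample column was left out. Library totals ranged from 51824408 to 163297772, and the small number of tumors, more than depth, sets the error of genes read at 10 CPM or more.

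The tests were run in edgeR 4.0.16 under R 4.3.3 (filterByExpr, TMM, glmQLFit, glmQLFTest, Benjamini-Hochberg adjustment over all genes tested, threshold 0.05), for the line and for the site, each without covariates, after a check on simulated counts. CPM are TMM scaled, and RPKM served to compare genes. Correlations used log2 CPM with a prior count of 2. A fold against a count of 0 used 3 counts per library. The alternatives were DESeq2 1.42.0, library sizes alone, no filter, the other factor as a covariate, halved counts, leaving out each tumor and, added after seeing the data, DESeq2 without tumor 36. P-values measure the spread between tumors. The members and the gene lists were chosen with earlier results of these data known. Of 148 list entries 147 were found, 2 under an older symbol. The genes named are the members, the list genes, all entries within 500 kb of Csn2 and the 5 genes most like Csn2 or Lpo, some of which are not reported here. Promoter sequences are from RefSeq, build GRCm38.p6, and exons from GENCODE M21.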

Additional observations from a re-analysis of the deposited data

Results flagged for a closer look

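In a search over 24 values (the 7 members and 3 neighbours of Csn2 tested in either comparison and the 14 summed marker and pathway lists, each on the log2 CPM scale over the 6 tumors), 3 had 1 tumor far from the rest, and chance alone flags about 1 in 20. In each of them it was tumor 36. The log2 summed CPM of the mammary luminal epithelium list was 12.46 in tumor 36 and 11.21 in the next tumor, a gap of 0.69 of the whole range. For the myoepithelium list the values were 11.38 and 9.12, a gap of 0.66 of the range. The log2 CPM of Sult1b1, a sulfotransferase gene near Csn2, was 5.92 in tumor 36 and -1.18 in the next tumor, a gap of 0.70 of the range. No milk gene was flagged, including Csn2 and Lpo, which were lowest in tumor 36.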

How the results depend on the processing

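Of 145 recomputed fold changes of members, 133 kept their sign, 12 reversed and 0 passed the threshold. They include 10 of Csn3 between the sites, of which 0 reversed. Csn3 passed the filter only through the perineal tumors, so these 10 do not count towards stability. Mean levels of members were recomputed 70 times, with library sizes alone or without 1 tumor. With library sizes alone, no mean moved by more than 1 SD. Leaving out 1 tumor cannot move a mean by 1 SD of the same tumors, so that limit does not judge those recomputations. Without 1 tumor, 3 low means fell over 1.5-fold. Csn1s1 fell from 0.282 to 0.18 CPM without tumor 25 and Csn3 from 0.0829 to 0.0442 CPM without tumor 27. Wap fell from 0.0362 to 0.0227 CPM without tumor 18. In each case the tumor left out was the highest for that gene. The mean Csn2 share of 99.60% was 99.57% with counts not scaled to length, and 99.55% to 99.73% without 1 tumor. Library sizes alone raised the median log2 fold change of all genes from 0.01 to 0.13 between the lines and from -0.02 to 0.08 between the sites. DESeq2 called 420 genes between the lines and 605 between the sites, against 0 and 0 by edgeR. DESeq2 without tumor 36, chosen after seeing the data, called 196 and 14, and in it the lone perineal tumor is assumed to vary like the others. Without 1 tumor, edgeR called 0 between the lines, and between the sites 0 to 567, with 567 without tumor 27 and 2 without tumor 25. The reversed values were -2.82 for Glycam1 between the lines with site as a covariate, and otherwise came from leaving out 1 tumor. Between the lines the latter were -0.79 to -0.38 for Csn1s1 and 0.06 to 0.26 for Elf5. Between the sites they were -0.91 to -0.16 for Btn1a1 and -0.60 for Elf5 (-0.63 by DESeq2 without tumor 36). The cause of the reversals was not tested. With the fits that kept their sign included, edgeR without 1 tumor gave wider ranges. Between the lines these were -0.79 to 0.80 for Csn1s1 and -1.29 to 0.26 for Elf5. Between the sites they were -0.91 to 0.69 for Btn1a1 and -0.60 to 1.13 for Elf5. Csn1s1 gave no value where all libraries of a group were at 0, namely without tumor 25 or with a covariate. Between the lines Csn1s1 also has no value by DESeq2 without tumor 36, although each line still had a tumor with reads. No paired analysis was possible because the tumor numbers are mouse numbers and are not shared between the lines.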
